A study of Mus musculus with 6 samples.

Results

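HMGA, IGF2BP and LIN28 proteins form a small oncofetal group of chromatin-binding and RNA-binding proteins, and their genes were described in the murine stromal line MS5, which derives from bone marrow. The group was selected on an earlier result of these arrays, the lower Hmga2 value with the MEK inhibitor, and Hmga1, Igf2bp1, Igf2bp2, Igf2bp3, Lin28a and Lin28b were added for their known biology. All probe sets whose annotated symbol was exactly 1 of these 7 genes were taken, which gave 6 probe sets of 5 genes among 28853 probe sets and 19938 genes. Igf2bp1 had 2 probe sets, Hmga2, Igf2bp3, Lin28a and Lin28b had 1 each, and Hmga1 and Igf2bp2 were not analysed here.

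Total RNA was hybridised to Affymetrix mouse Gene ST arrays after 7 days with 1 µM PD184352 (MEKi), an inhibitor of the kinases MEK1/2 that activate ERK1/2, or with its diluent DMSO. The 6 arrays came from 3 independent experiments, with a single culture of either condition in each. All cultures were of 1 unmodified cell line, grown without leukaemic cells. In the main model, p-values rested on how much the MEKi minus diluent differences varied between the 3 experiments with that line. Variance information was shared over all probe sets. Values are log2 RMA signals, in which a difference of 1 is a 2-fold change. Probes differ in affinity, so levels of different member genes were not compared. Levels served only as a rough guide, for markers, for the brightest probe set of a gene and for filters on the median. The array medians lay between 6.29 and 6.38.

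LIN28A and LIN28B are RNA-binding proteins that block the maturation of let-7, a microRNA family that rises as cells differentiate. Mature let-7 in turn represses mRNAs that include Hmga2, the Igf2bp genes and the Lin28 genes themselves. HMGA2 and HMGA1 bind AT-rich DNA through AT-hooks and bend it, whereas IGF2BP proteins bind mRNAs such as those of Igf2 and Myc and affect their stability, transport and translation. All these genes are highly expressed in embryonic tissues, and most are low or silent in adult ones.

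The let-7 sequences are given because this shared regulator links the genes. RefSeq held 11 of the 12 let-7 precursor genes searched, which encode 9 mature 5p sequences with 1 seed, GAGGUAG, at bases 2 to 8. Of these, 8 begin with U and let-7d begins with A. The 4 below are the reference let-7a, the product of Mirlet7c-1, whose precursor signal varied most between experiments among the 10 measured, and the products of Mirlet7g and Mirlet7i. Capitals mark the seed, coordinates are those of GRCm38.p6, and each runs 5′ to 3′.
let-7a-5p of Mirlet7a-1, chr13:48538239-48538260, minus strand: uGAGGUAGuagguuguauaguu
let-7c-5p of Mirlet7c-1, chr16:77599672-77599693, plus strand: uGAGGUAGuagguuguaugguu
let-7g-5p of Mirlet7g, chr9:106178846-106178867, plus strand: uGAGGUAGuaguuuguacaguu
let-7i-5p of Mirlet7i, chr10:122985698-122985719, minus strand: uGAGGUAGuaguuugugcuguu
The last 3 differed from let-7a at 1, 2 and 4 bases, respectively, all outside the seed.

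The promoter of Hmga2 is given because Hmga2 carried the difference between the conditions. Its 250 bases before the start, from RefSeq on GRCm38.p6 at chr10:120476470-120476719, read 5′ to 3′ on the minus strand, which is the strand of the gene, with a GC box (GGGCGG on the other strand) in capitals.
Hmga2: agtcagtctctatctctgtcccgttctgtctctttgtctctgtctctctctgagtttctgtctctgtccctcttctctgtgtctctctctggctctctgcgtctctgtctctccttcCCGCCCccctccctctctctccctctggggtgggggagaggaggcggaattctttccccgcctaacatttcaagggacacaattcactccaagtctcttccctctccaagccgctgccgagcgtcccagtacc
This stretch was 70.8% pyrimidine (C or T), against a median of 50.0% over 27025 promoters of this length, and 99.6% of the promoters had a lower share. The GC box, searched on both strands, was found 1 time, with its leftmost base 133 bases before the start, and 32.9% of all promoters held it. Neither an AP-1 motif (TGANTCA, in 6.87% of promoters) nor an ETS motif (CCGGAAGT, in 2.93%) was found, and the promoters of Igf2bp3, Lin28a and Lin28b held 0 matches to any of the 3 motifs. The promoter of Igf2bp1 was not searched. These matches describe letters only, and no binding was measured.

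Hmga2, the architectural chromatin protein of the group, was lower with MEKi in each of the 3 experiments. In diluent, its log2 values were 9.76, 9.60 and 10.26 in experiments 1, 2 and 3. In the MEKi cultures of the same experiments they were 8.54, 8.93 and 9.60. All MEKi values thus lay below all diluent values, but the lowest diluent value and the highest MEKi value were only 0.00166 apart, so that the conditions separated clearly only within experiments. The difference was -1.22 in experiment 1, -0.67 in experiment 2 and -0.66 in experiment 3, which is 0.429, 0.630 and 0.632 times the diluent level.

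The means were 9.87 ± 0.35 (SD, n = 3) in diluent and 9.02 ± 0.54 (SD, n = 3) with MEKi, and the mean difference was -0.85 (SE 0.121 from limma with the experiment as a block), or 0.554 times the diluent level. Because Hmga2 was selected on this contrast, the difference is a description and carries no test. Only 28 of the 28853 probe sets had a more negative mean difference. In bulk cultures, fewer cells with Hmga2 and less Hmga2 RNA per cell cannot be told apart.

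Hmga2 belonged to several sets of probe sets that moved alike, which are given as background because it was selected on the same values. MEKi was lower than diluent in all 3 experiments for 2302 probe sets (7.98%), and at least 1.5-fold lower in all 3 for 18 (0.0624%), Hmga2 among them. All MEKi values lay below all diluent values for 626 (2.17%). After Benjamini-Hochberg adjustment in limma, 46 of 28853 probe sets (0.159%) passed 0.05, of which 30 rose and 16 fell. Hmga2 was not among these 46. Because it was selected on this contrast, that is no test of its difference, which stays a description.

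The 3 IGF2BP probe sets, which report mRNA-binding proteins, stayed within 0.25 of their diluent value in every experiment. The brighter Igf2bp1 probe set gave 5.89, 6.01 and 5.59 in diluent and 5.84, 6.16 and 5.68 with MEKi in experiments 1, 2 and 3, a mean difference of 0.07 (SE 0.0780). The other Igf2bp1 probe set gave 3.73, 3.76 and 3.94 in diluent and 3.85, 4.01 and 3.92 with MEKi, a mean difference of 0.12 (SE 0.0825). The conditions overlapped in both probe sets, and neither differed in the same direction in all 3 experiments. Igf2bp3 gave 5.11, 5.26 and 5.23 in diluent and 4.98, 5.28 and 5.08 with MEKi, a mean difference of -0.09 (SE 0.0768). Its differences were -0.13, 0.02 and -0.14, so that experiment 2 differed in sign from the others.

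The LIN28 genes, which encode the inhibitors of let-7 maturation, varied least within the group. Lin28a gave 6.13, 6.11 and 6.19 in diluent and 6.11, 6.20 and 6.15 with MEKi, a mean difference of 0.01 (SE 0.0746), and its 6 values spanned 0.0902. This small difference was -0.02 with arrays centred on their medians or quantile-normalized again. Lin28b gave 4.46, 4.40 and 4.41 in diluent and 4.45, 4.34 and 4.32 with MEKi, a mean difference of -0.05 (SE 0.0728). Lin28b was lower with MEKi in all 3 experiments, by at most 0.10, as were 7.98% of all probe sets. RMA gives no detection call, so whether the IGF2BP and LIN28 mRNAs were present was not measured.

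**Figure D1:**
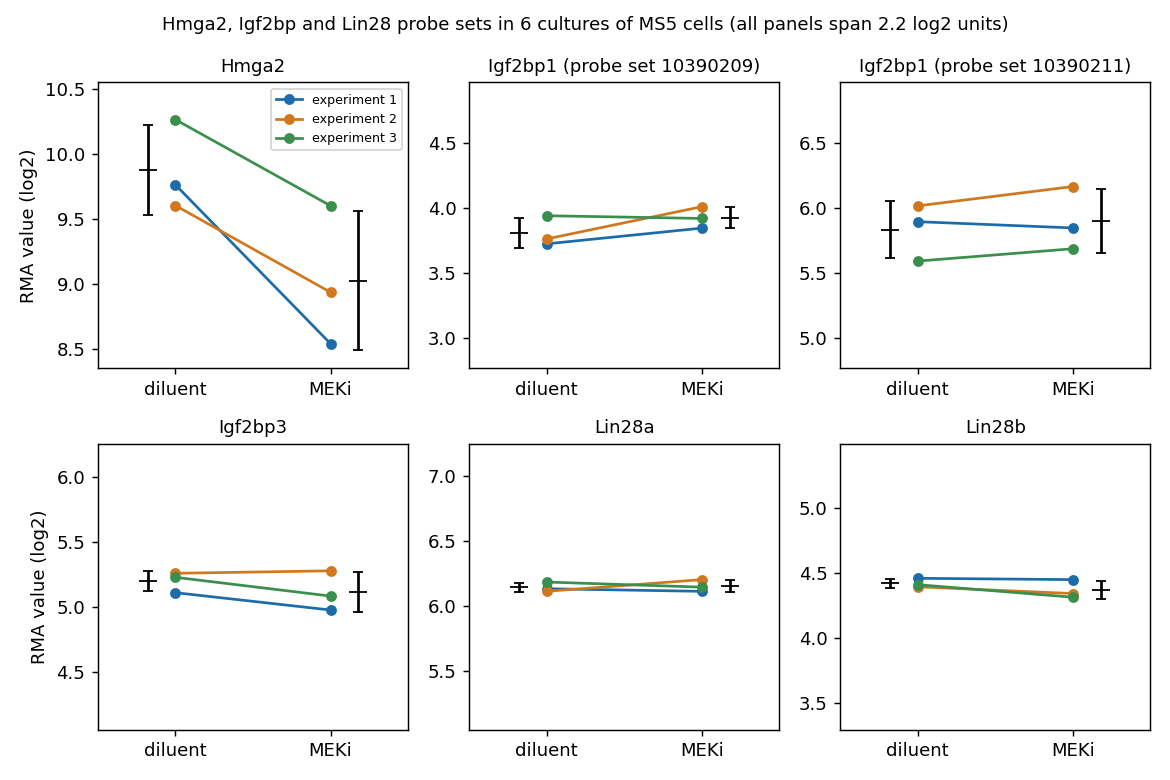
RMA signal (log2) of the 6 probe sets of Hmga2, Igf2bp1, Igf2bp3, Lin28a and Lin28b in each diluent and MEKi culture, with lines joining the cultures of 1 experiment and black bars for the mean ± SD of the 3 cultures of a condition. The Hmga2 lines run down in all 3 experiments, by 0.66 to 1.22, while no difference of the other 5 probe sets goes beyond -0.14 to 0.25.

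The experiment means were a measure that the choice of genes did not use. Variation between them was tested for all 6 probe sets with limma's moderated F test of the experiment coefficients, adjusted over all 28853 probe sets. The residual spread in that test comes from the within-experiment differences, so the test is not wholly free of the choice. Of the 28853 probe sets, 2218 (7.69%) passed 0.05. Hmga2 was the 1 probe set of the 6 that passed (adjusted p = 0.0374), with means over both conditions of 9.15, 9.27 and 9.93 in experiments 1, 2 and 3. Experiment 3 was the highest in both conditions, by 0.78 over experiment 1 and 0.66 over experiment 2. Without experiment 3 the adjusted p was 0.704, and the remaining experiments differed by 0.12. The MEKi difference of Hmga2 was thus of the size of its spread between experiments. Culture, RNA extraction and array processing of an experiment cannot be told apart.

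The other probe sets did not pass this test. The brighter Igf2bp1 probe set, with experiment means of 5.87, 6.09 and 5.64, had an adjusted p of 0.0647 (limma), and was lowest in experiment 3, where Hmga2 was highest. The other Igf2bp1 probe set and those of Igf2bp3, Lin28b and Lin28a had adjusted p of 0.62, 0.33, 0.737 and 0.95, respectively. Over the 6 arrays, Pearson's r with Hmga2 was -0.548 for the brighter and -0.137 for the other Igf2bp1 probe set, 0.41 for Igf2bp3, 0.198 for Lin28a and -0.012 for Lin28b. These correlations are descriptions over arrays that share experiments and treatment.

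The let-7 precursor genes, the substrates of LIN28, gave no call for MEKi. Of 12 listed, 10 had a probe set, and 0 rose and 0 fell in limma, against 46 of 28853 (0.159%) over all probe sets. At that share, 0 calls say little about a list this short. The median difference of the 10 was 0.07, against 0.04 over all probe sets, with a range of -0.08 to 0.16. The largest differences by size were 0.16 for Mirlet7g (adjusted p = 0.583), 0.16 for Mirlet7i (adjusted p = 0.647), 0.11 for Mirlet7a-2 (adjusted p = 0.682) and 0.11 for Mir98 (adjusted p = 0.684), all from limma. Their probe sets report precursor or host transcripts, and mature let-7 was not measured.

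Differences between experiments were counted in this family as well, and the count is too small to set the family apart. The F test passed for 2 of the 10 precursor genes, against 7.69% of all probe sets, and both are named here after their values were seen. Mirlet7c-1, the source of the let-7c sequence printed above, gave 5.32, 6.28 and 6.73 in diluent and 5.28, 6.52 and 6.72 with MEKi in experiments 1, 2 and 3 (limma F test, adjusted p = 0.000885). Experiment 1 was the lowest in both conditions, and without it the adjusted p was 0.31. Mir98 had experiment means of 4.13, 4.47 and 4.61 (limma F test, adjusted p = 0.0407).

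**Figure D2:**
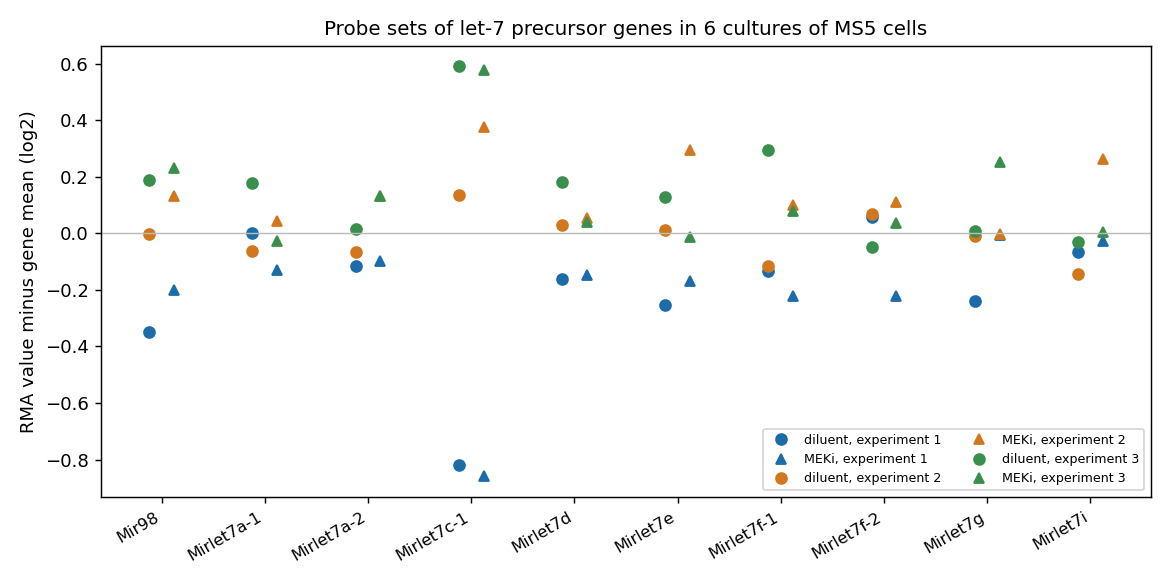
RMA signal minus the mean of each gene over the 6 arrays (log2) for the 10 let-7 precursor genes with a probe set, with circles for diluent, triangles for MEKi and 1 colour per experiment. Diluent and MEKi of the same experiment lie together for Mirlet7c-1, with experiment 1 far below the others.

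The enzymes that process let-7 and the cofactors of LIN28 also gave no MEKi call. Of 18 genes, 17 were measured, their median difference was 0.06, and 0 rose and 0 fell, against 0.159% of all probe sets. The 4 largest differences were those of Ago2, an Argonaute protein that loads microRNAs (-0.22, adjusted p = 0.569), the RNA helicase Ddx5 (0.17, adjusted p = 0.5), Khsrp, which promotes let-7 processing (-0.14, adjusted p = 0.683), and Ago4 (0.13, adjusted p = 0.705), all by limma. In the F test between experiments 1 of the 17 passed, Ago2 (limma, adjusted p = 0.0441), against 7.69% of all probe sets.

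Among 26 other genes described as let-7 targets, 23 were measured, 1 rose, 1 fell and 21 did not pass, with a median difference of 0.04. Over all probe sets, 0.159% passed. Ccnd1, the cyclin D1 gene that drives entry into the cell cycle, gave 10.25, 9.53 and 8.84 in diluent and 8.71, 8.23 and 7.73 with MEKi. It fell by 1.32 on the log2 scale (SE 0.0966, limma adjusted p = 0.03), and was lower in 3 of 3 experiments. Without experiment 2 its limma adjusted p was 0.131. Its values were highest in experiment 1 and lowest in experiment 3, where Hmga2 was highest, and its experiments differed (limma F test, adjusted p = 0.00463).

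Thbs1, which encodes the matrix protein thrombospondin 1, gave 12.01, 11.60 and 11.10 in diluent and 12.52, 12.28 and 11.82 with MEKi. It rose by 0.64 (SE 0.0790, limma adjusted p = 0.0489), and was higher in 3 of 3 experiments. Without experiment 1, 2 or 3 its limma adjusted p was 0.105, 0.17 or 0.115, so that its call needed all 3. The death receptor gene Fas (0.46, adjusted p = 0.147) and the survival gene Bcl2l1 (-0.39, adjusted p = 0.33) did not pass in limma.

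Of 14 mRNAs described as bound by IGF2BP proteins, 12 were measured, and 0 rose and 0 fell, against 0.159% of all probe sets. Their median was 0.03. Igf2, the mRNA after which the family is named, gave differences of -0.78, 0.14 and -0.38 in experiments 1, 2 and 3 (mean -0.34, SE 0.157, limma adjusted p = 0.545). It thus differed in sign between experiments. The drug transporter gene Abcb1b (0.35, adjusted p = 0.188), the laminin gene Lamb2 (0.29, adjusted p = 0.503) and the hyaluronan receptor gene Cd44 (-0.25, adjusted p = 0.35) did not pass either in limma.

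All 14 genes described as regulated by HMGA proteins were measured, and 0 rose and 0 fell, against 0.159% of all probe sets. Their median was 0.05. Ptgs2, the cyclooxygenase 2 gene, was lower in 3 of 3 experiments, with a mean difference of -0.56 (SE 0.127), but did not pass (limma adjusted p = 0.229). The values were -0.38 for the AP-1 gene Junb (adjusted p = 0.277), 0.18 for Twist1 (adjusted p = 0.631) and 0.16 for Snai1 (adjusted p = 0.563), the last 2 being transcription factors of mesenchymal cells (all limma). In the F test between experiments 3 of the 14 passed, against 7.69% of all probe sets, and Ccna2 and Ccnb2 are named after their values were seen. Snai1 had means of 10.13, 8.82 and 9.08 (adjusted p = 0.000792), and the cyclin genes Ccna2 and Ccnb2 had means of 10.06, 9.20 and 9.01 (adjusted p = 0.00312) and 9.47, 8.87 and 8.42 (adjusted p = 0.00813, all limma). Both cyclins were highest in experiment 1 and lowest in experiment 3, whereas Hmga2 was highest in experiment 3. Whether cell division had a part in the differences between experiments was not tested.

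Of 10 other high mobility group genes, 9 were measured, and 0 rose and 0 fell, with a median of 0.09. The largest differences were 0.35 for Hmgn5 (adjusted p = 0.419), 0.21 for Hmg20b (adjusted p = 0.454), 0.15 for Hmgn3 (adjusted p = 0.62) and 0.12 for Hmgb1 (adjusted p = 0.753), all by limma. With 0.159% of all probe sets passing, 0 of 9 says little about these chromatin protein genes.

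The 7 genes of IGF ligands, receptors and substrates were all measured, and 0 rose and 0 fell, against 0.159% of all probe sets. Their median was 0.06. Igf1, a growth factor of stromal cells, gave 10.13, 10.34 and 9.96 in diluent and 10.64, 10.82 and 10.55 with MEKi, a mean difference of 0.53 (SE 0.0733, limma adjusted p = 0.0783). Its conditions did not overlap, but it missed the threshold, as did the receptor substrate gene Irs1 (0.47, limma adjusted p = 0.156). With an intensity trend and a robust prior in limma both passed (limma adjusted p = 0.0107 and 0.0245). Igf1r, the IGF1 receptor gene, differed by -0.13 (limma adjusted p = 0.734).

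Over the 7 lists together, 83 of 92 genes were measured, 1 rose, 1 fell and 81 did not pass in limma, while 14 had an unadjusted p under 0.05. Of the 83, 9 were lower and 23 higher in all 3 experiments, and their median difference was 0.05. Over all 28853 probe sets, 30 rose and 16 fell in limma. Of all probe sets, 2302 were lower and 6865 higher in all 3 experiments, and 2853 had an unadjusted p under 0.05. The 8 ERK output genes, which report the inhibited pathway, had a median of -0.49, and 6 of the 8 were lower in all 3 experiments. Of these, Ccnd1 and Fosl1, an AP-1 gene (-0.81, limma adjusted p = 0.0319), fell and the others did not pass, such as Egr1 (-0.65, limma adjusted p = 0.0906) and the ERK phosphatase gene Dusp6 (-0.57, limma adjusted p = 0.137). The Fosl1 call was lost without experiment 1 (limma adjusted p = 0.103) and without experiment 2 (0.14). The limma adjusted p of Ccnd1, Thbs1 and Fosl1 was 1 without the experiment as a block, and 0.0508, 0.0684 and 0.0523, respectively, with arrays centred on their medians.

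**Figure D3:**
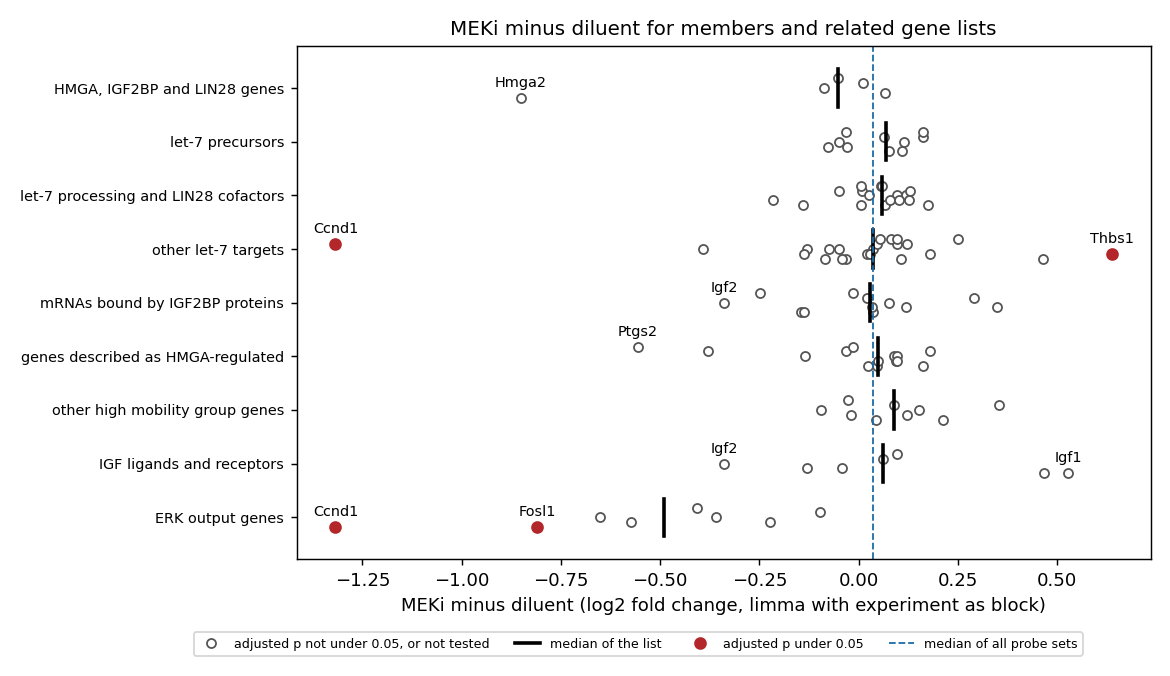
Mean MEKi minus diluent difference (log2 fold change) of each measured gene of the HMGA, IGF2BP and LIN28 group, of the 7 related lists and of the ERK output genes, with 1 probe set per gene, the median of each list as a bar and the median of all probe sets as a dashed line. Filled points passed 0.05 (Ccnd1, Thbs1 and Fosl1), the genes of the first line are shown as a description without a test, and Hmga2 lies at -0.85.

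The cells were checked by markers, as a rough guide because probe sets differ in affinity. Of 10 stromal markers, Vim (13.21 to 13.27), Cxcl12 (11.79 to 12.50), Pdgfrb (11.71 to 12.19) and Col1a1 (10.77 to 11.21) lay far above 6.32, the median of the probe set means. Lum (3.05 to 3.35) and Thy1 (5.46 to 5.67) lay below it, as did the mean of Dcn (5.97). Dcn, a proteoglycan gene, gave 7.34, 5.47 and 5.76 in diluent and 6.23, 5.56 and 5.44 with MEKi, a mean difference of -0.45 (SE 0.199, limma adjusted p = 0.532), and its value in diluent of experiment 1 stood above the others. The 8 measured haematopoietic and endothelial markers spanned 4.12 to 6.15 and the 10 pluripotent cell markers 3.71 to 5.95, all below that median, and 0 of any marker list rose or fell with MEKi in limma.

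The 5 genes whose values were most like those of Hmga2 were sought among 2818 probe sets at or above that median and with at least a 1.5-fold range over the 6 arrays. Zfp608 had a Pearson's r of 0.9986, Mgp 0.992, Mpp6 0.9856, Il12rb1 0.9847 and Ptpn3 0.9689, as a description over 6 arrays that share treatment and experiments. Mgp, which encodes the mineralization inhibitor matrix Gla protein, gave 10.27, 10.00 and 10.64 in diluent and 8.80, 9.26 and 9.83 with MEKi, a mean difference of -1.01 (SE 0.142). The mean differences of Zfp608, Mpp6, Il12rb1 and Ptpn3 were -0.31, -0.45, -0.40 and -0.24. These were smaller in size than that of Hmga2 (-0.85), whereas that of Mgp was closer to it. Like Hmga2, all 5 were lower with MEKi and highest in experiment 3, which follows largely from their choice by r over the same arrays.

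**Figure D4:**
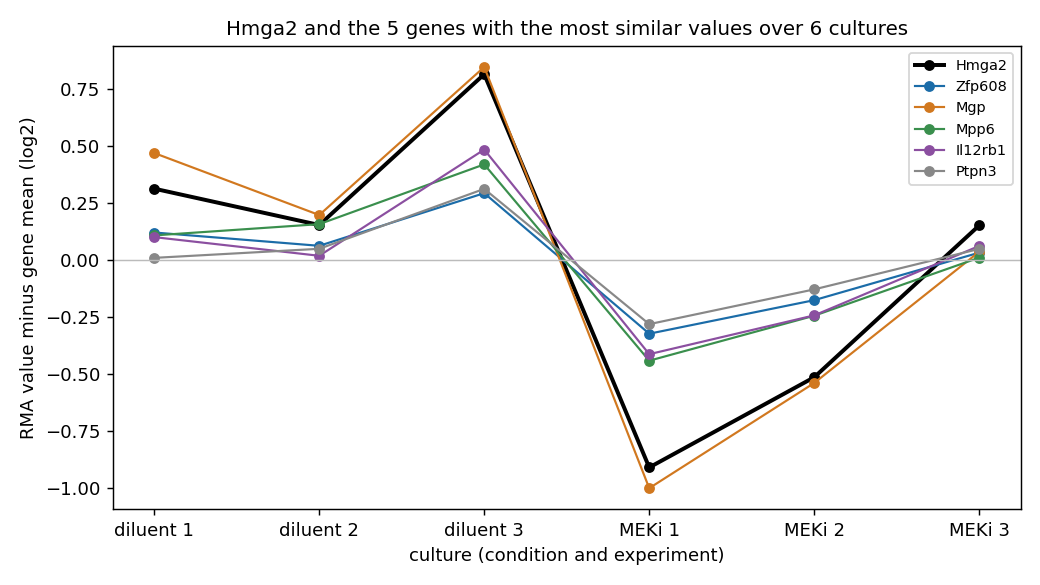
RMA signal minus the mean of each gene over the 6 arrays (log2) for Hmga2 and the 5 probe sets with the highest Pearson's r to it, in the 3 diluent and 3 MEKi cultures, with lines that only link the points of a gene. All 6 are highest in the diluent culture of experiment 3 and lowest in the MEKi culture of experiment 1, an order that the choice by r favours. Mgp and Hmga2 cover the widest ranges (mean differences of -1.01 and -0.85).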

How the data were processed

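RNA of 6 MS5 cultures was measured on 6 arrays, 3 per condition (dose and time from the study's methods). The authors normalized the array intensities with RMA and deposited log2 values of 28853 probe sets, with statistics in Partek. Versions of RMA and Partek, and a build, are not given in the sources used here. The deposited log2 values were used without filter or further normalization. The number of arrays limits the precision.

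Probe sets were named by the platform's annotation table: 21789 name 1 gene, 1621 several and 5443 had no symbol listed. A gene of the lists was represented by its brightest probe set. The members, the 12 gene lists and the tests were chosen with earlier results of these data known.

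Linear models were fitted with limma 3.58.1 under R 4.3.3 (functions lmFit and eBayes) on condition and experiment, the experiment being a block, with Benjamini-Hochberg adjustment over all probe sets and a threshold of 0.05. A moderated F test of the experiment coefficients came from the same fit. Residual degrees of freedom were 2, and the prior added 5.17. The experiment numbers in the labels pair the arrays: deviations from the group means correlated by 0.812, 0.586 and 0.621 for arrays of 1 experiment, against -0.605 to 0.207 for others. Centring each group on its own mean pushes the other correlations down, so this contrast is partly built in. The code was tested on simulated data.

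The genes named are the members, up to 4 genes per list by size of the difference (those past the threshold first) and the 5 genes most like Hmga2. Sequences were read from RefSeq tables with Python 3.11.15 and pandas 2.3.3, and plots were drawn with matplotlib 3.10.9. Alternatives were the fit without the block, a random block, further normalization, brighter probe sets only, an intensity trend with a robust prior, the analysis of variance of the methods, averaging the probe sets of a gene and leaving out each experiment.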

Additional observations from a re-analysis of the deposited data

How the results depend on the processing

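The Hmga2 difference was -0.85, and between -0.67 and -0.95 when 1 experiment was left out. The 46 limma calls for MEKi became 0 with no replicate block (907 at unadjusted p under 0.05), 0 with a random block (2321), 15 after further quantile normalization, 0 after centring on array medians (2780), 25 among brighter probe sets, 115 with an intensity trend and robust prior, and 0 to 37 when 1 experiment was left out, the 0 being without experiment 2 (3063 at unadjusted p under 0.05). The methods' analysis of variance gave 66 at their threshold and 0 after Benjamini-Hochberg (2195 at unadjusted p under 0.05). The 2 pathway calls, Ccnd1 and Thbs1, became 0 with no replicate block (limma, 8 at unadjusted p under 0.05), 0 with a random block (12), 0 after centring (14), 1 after quantile normalization, 1 among brighter probe sets, 4 with the trend and robust prior, and 0 to 1 when 1 experiment was left out, the 0 again without experiment 2 (18).

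The 2218 calls between experiments became 3564 with the trend and robust prior and 185 to 2379 when 1 experiment was left out, a choice made after seeing the data. The adjusted p of Hmga2 there was 0.0143 to 0.0394 under other settings and 0.0396 to 0.704 when 1 experiment was left out, the highest without experiment 3. Of 838 values of single genes under alternatives, 764 kept direction and side of the threshold, 53 that passed in neither setting or were not tested changed sign (Lin28a among them), 18 lost a call, 3 gained 1 (Igf1, Irs1 and Egr1, with the trend and robust prior) and 0 called values reversed. Causes were not tested. With 3 pairs of cultures, small differences of the IGF2BP and LIN28 probe sets may have gone unseen. Their mean differences had SE of 0.0728 to 0.0825 and were given without a test.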
